A study of Homo sapiens with 12 samples.

Results

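In MDA-MB-231 breast cancer cells, 58 genes answered alisertib differently with TGFβ than without it. They were chosen by a test of the interaction over 20571 tested genes of 57773 in the table. The interaction is the log2 fold change of alisertib with TGFβ (TGFβ+alisertib over TGFβ) minus the log2 fold change of alisertib without TGFβ (alisertib over untreated). The same number is the TGFβ response with alisertib minus the TGFβ response without it. RNA was sequenced in 12 libraries in 4 groups of 3: cells given TGFβ+alisertib for 48 h, cells given TGFβ for 48 h, cells given alisertib for 48 h, and cells with no treatment. All groups are the same established line of human triple-negative breast cancer grown in medium with serum. Doses, and a time point for the untreated cells, are not stated in the labels. Whether libraries of 1 group are separate cultures is not stated, and p-values then measure only the spread between libraries, which may be technical.

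TGFβ is a secreted ligand that binds paired receptor kinases at the cell surface, which phosphorylate SMAD2 and SMAD3. With SMAD4 these enter the nucleus and switch on target genes, among them matrix genes, protease inhibitors and feedback inhibitors of the pathway. In carcinoma cells TGFβ is known for driving epithelial to mesenchymal transition. Aurora A, encoded by AURKA, is a kinase that matures centrosomes and builds the mitotic spindle, and alisertib is a small molecule that inhibits it. With the 4 groups, the interaction of the agents can be estimated.

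The libraries held 105921831 to 120619368 counts in the group with both agents, 110282980 to 118220032 in the TGFβ group, 97048328 to 105563951 in the alisertib group and 93701658 to 100328721 in the untreated group. Of 10 markers of mesenchymal-like breast lines, 10 were above 1 CPM (counts scaled to a common library size) in every library. Of 10 luminal markers 5 were above 1 CPM in every library, GATA3, ERBB2, KRT8, KRT18 and EPCAM. The luminal markers ESR1, PGR and FOXA1 were each at most 0.0581 CPM. Among 10 leukocyte markers 1 was above 1 CPM in every library, CD68, and PTPRC reached at most 0.180 CPM. The summed level of the leukocyte list was 81.4 to 92.8 CPM with both agents, 72.6 to 80.7 CPM in TGFβ libraries, 67.0 to 73.1 CPM in alisertib libraries and 45.6 to 60.6 CPM in untreated cells. Nearly all of this sum was CD68, at 43.9 to 91.8 CPM over all libraries. The next highest leukocyte marker, CD14, reached at most 2.90 CPM. Of 7 endothelial markers in the table none was above 1 CPM in every library, and CLDN5 was at 0 throughout. In every group 1 library was set off from the others along the GC content of the genes: TGFβ+alisertib library 10, TGFβ library 6, alisertib library 9 and untreated library 1. In these 4 libraries that stood apart, the deviations from the group mean had a Spearman correlation with GC content of -0.788 to -0.725, against 0.158 to 0.807 in the other 8 libraries. Each group holds 1 such library, and the log2 interaction itself had a correlation of -0.00833 with GC content across 11083 genes.

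Of the 20571 tested genes, 58 (0.282%) were called for the interaction at an adjusted p under 0.05. The interaction was negative in 34 genes (0.165%) and positive in 24 (0.117%). At an unadjusted p under 0.05 there were 1170 genes (5.69%), with 627 positive (3.05%) and 543 negative (2.64%). With no interaction in any gene, a share of about 0.05 would pass this threshold, so the 1170 are not read as interaction genes. For 39 of the 58, alisertib changed expression past its own test without TGFβ alone, for 9 with TGFβ alone, for 5 in both settings in the same direction and for 5 in opposite directions. Those 5, TGFBI, PDE4B, CCRL2, THBD and HCAR1, were the complete set with opposite called alisertib responses among the tested genes. Over all tested genes alisertib changed 1387 without TGFβ (6.74%) and 428 with TGFβ (2.08%). Split in the same way as the 58, 1093 of all tested genes passed without TGFβ alone and 134 with TGFβ alone. A further 289 passed in both settings in the same direction and 5 in opposite directions. The larger count without TGFβ alone was thus seen over all tested genes too. Seen from the other agent, TGFβ changed 7901 genes with alisertib (38.4%) and 7940 without it (38.6%). In 55 of the 58 genes the TGFβ response passed its test in both settings, and in 53 of these (96.4%) it was smaller with alisertib. Over all tested genes it passed in both settings in 6512, and was smaller with alisertib in 4123 of these (63.3%). The 58 were chosen by the difference of these same responses, so the gap between the shares is not a separate result.

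In the 34 negative genes the median log2 fold change of alisertib was 0.08 with TGFβ and 0.76 without it, and that of TGFβ was 1.73 with alisertib and 2.51 without it. In the 24 positive genes the median for alisertib was 0.28 with TGFβ and -0.37 without it, and for TGFβ it was -1.33 with alisertib and -1.96 without it. These medians describe the genes that the test chose, and the responses share libraries with the interaction, so they support nothing beyond the calls.

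**Figure D1:**
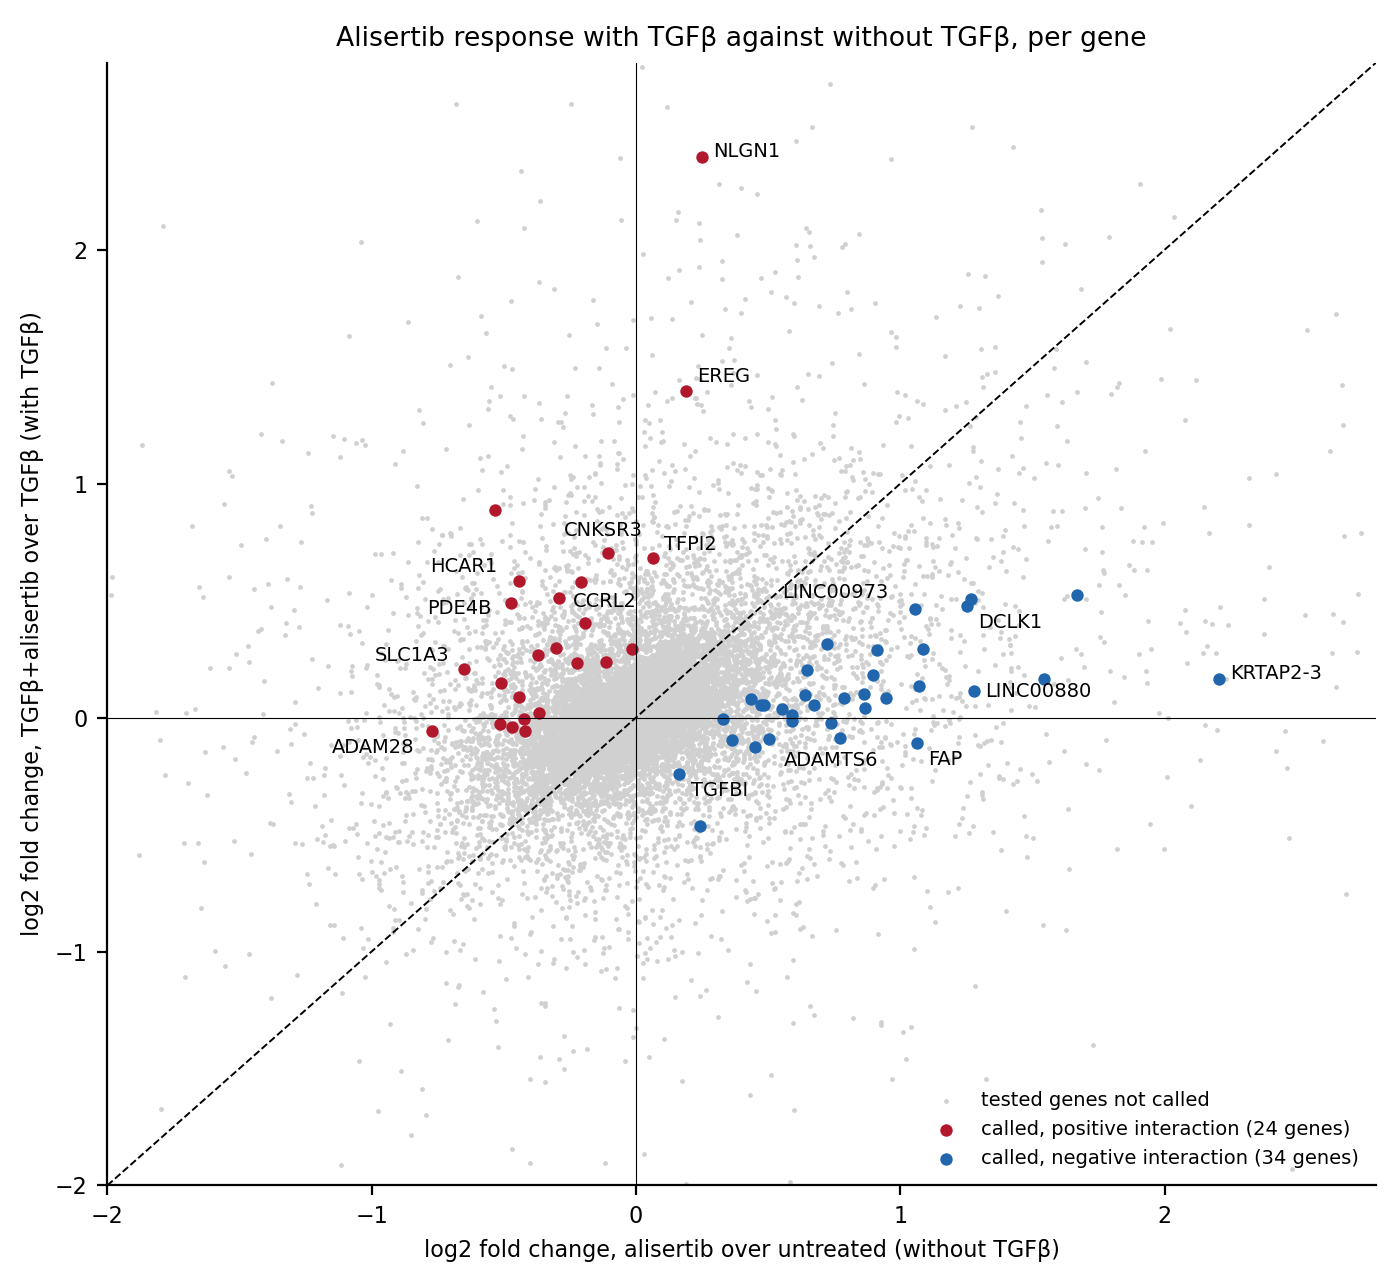
Log2 fold change of alisertib with TGFβ (y axis) against the log2 fold change without TGFβ (x axis), 1 point per tested gene, with the 24 positive interaction genes in red, the 34 negative ones in blue and equal responses on the dashed line. The negative genes lie below the dashed line and the positive ones above it, as the test that chose them requires, and 80 genes fall outside the drawn range.

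The number of calls moved by over 1.5 times when any 1 library was left out. It was 19 without alisertib library 9, 20 without TGFβ library 4, TGFβ library 5 or alisertib library 7, and 23 to 37 without any other library except untreated library 1, without which it was 166. Without the 4 libraries that stood apart, 744 of 20711 tested genes were called (3.59%, with 479 positive and 265 negative), and with the main deviation between libraries of a group as a covariate, 699 of 20571 (3.4%, with 358 positive and 341 negative). The covariate was estimated from these same counts, and the 4 libraries were picked for their deviations from the group means. Both fits can thus give p-values that are too small, and they do not replace the test over all 12 libraries. Where no other tool or fit is named below, called refers to edgeR's test over all 12 libraries with neither a covariate nor an offset. All 58 genes kept their direction in every fit that tested them, and all 58 were called in both of those fits. The fits share libraries with the test that chose the genes, so agreement in direction is nearly fixed in advance. Of the 32 called genes named here, all 32 passed without untreated library 1, 9 without alisertib library 7, 10 without TGFβ library 5 or alisertib library 9, and 12 to 19 without any other single library. Called in 1 to 4 of the 12 such fits were ADAM28, DUSP4, FAT4, HSF2BP, SORBS2, ABCA1, DCLK1, FOXQ1, KLF10, KLF4, SGK1, CNKSR3, CST1, FAP, IL11, RCSD1, PTPRR and SLC1A3, and the other 14 in 6 or more.

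**Figure D2:**
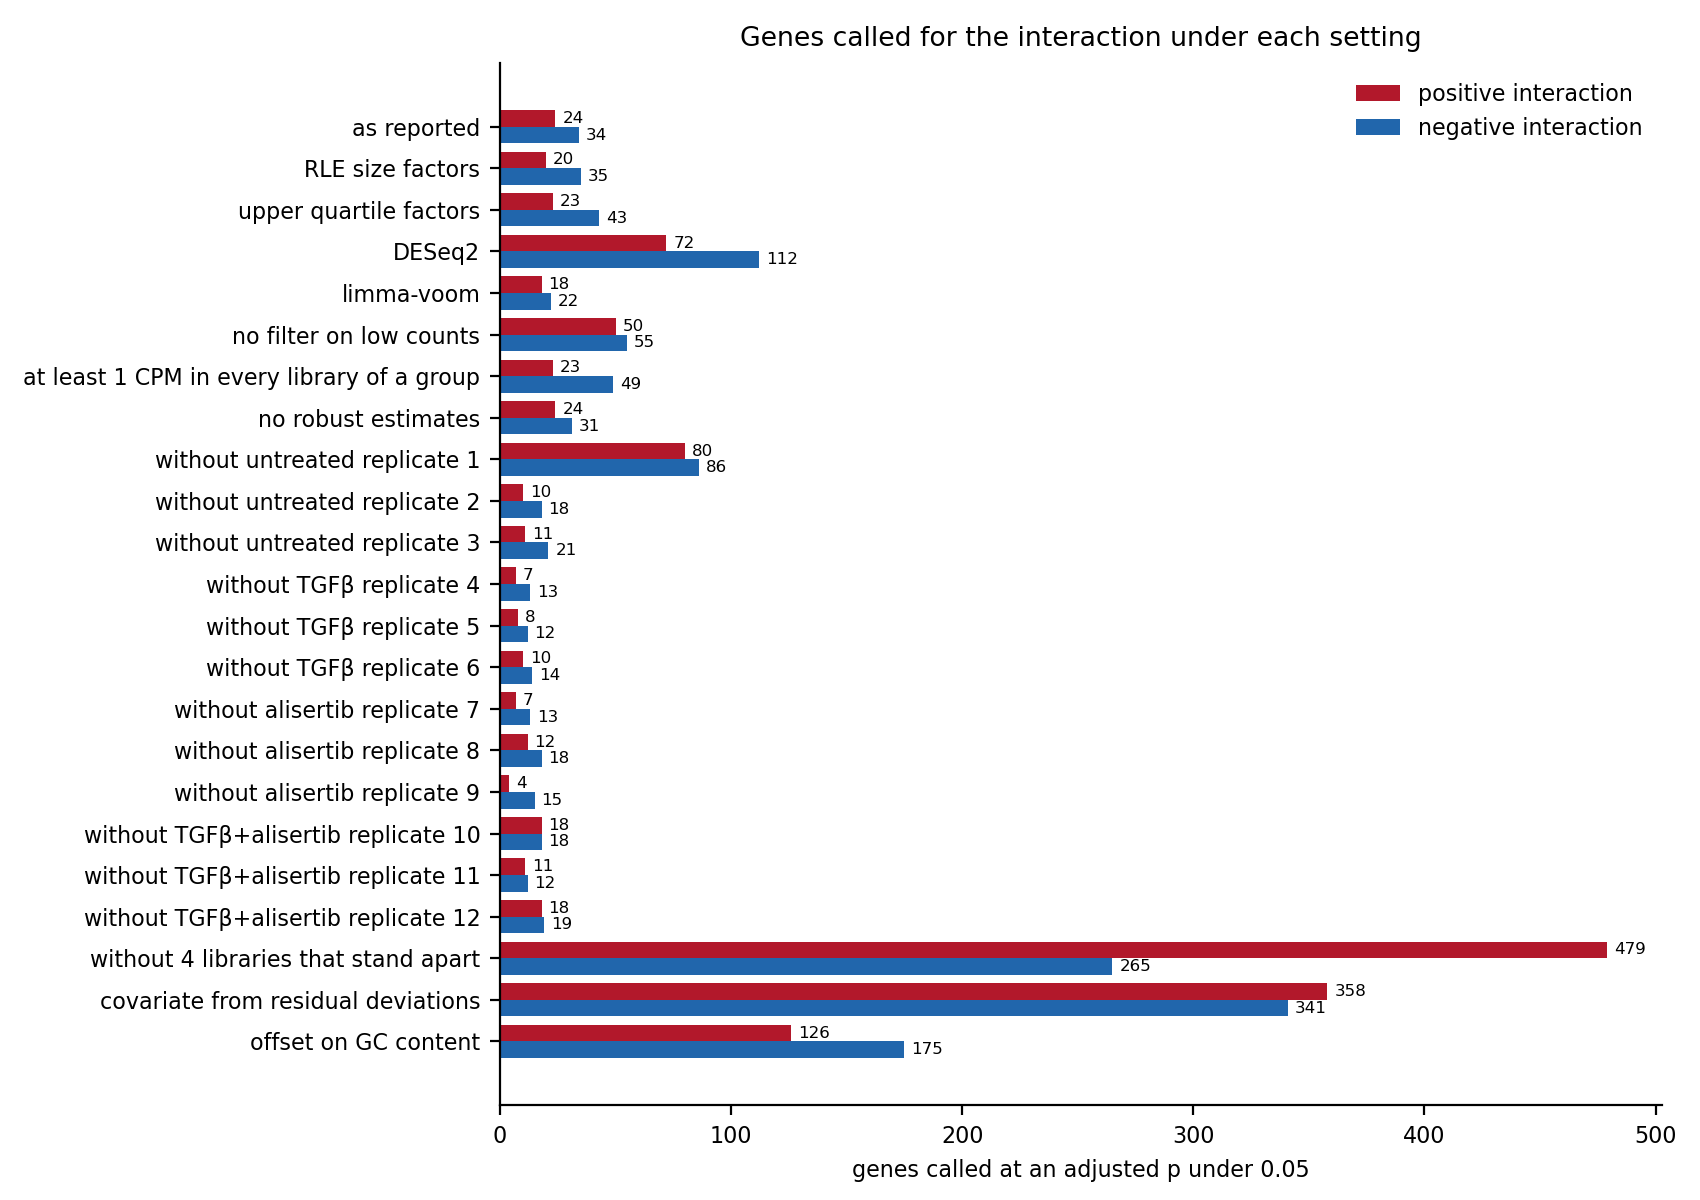
Genes called for the interaction at an adjusted p under 0.05 (x axis, counts from 0) under each way of fitting (rows), with positive interactions in red and negative ones in blue. The counts as reported are 24 and 34, and leaving out the 4 libraries that stood apart gave 479 and 265.

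Since the calls are of transcript levels, 4 promoter windows of called genes are shown, those of IL11, DCLK1 and TFPI2 for their AP-1 letters and that of EREG for the short SMAD box. Each runs from 250 bases before to 50 bases after the start, 5′ to 3′ on the gene's strand, from RefSeq on GRCh38.p14, with matches in capitals.
IL11: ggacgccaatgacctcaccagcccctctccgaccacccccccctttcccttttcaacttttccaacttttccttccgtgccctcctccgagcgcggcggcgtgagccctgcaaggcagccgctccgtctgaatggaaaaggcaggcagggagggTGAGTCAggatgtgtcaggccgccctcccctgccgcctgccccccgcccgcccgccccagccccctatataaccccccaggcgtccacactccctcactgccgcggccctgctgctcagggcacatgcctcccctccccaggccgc
DCLK1: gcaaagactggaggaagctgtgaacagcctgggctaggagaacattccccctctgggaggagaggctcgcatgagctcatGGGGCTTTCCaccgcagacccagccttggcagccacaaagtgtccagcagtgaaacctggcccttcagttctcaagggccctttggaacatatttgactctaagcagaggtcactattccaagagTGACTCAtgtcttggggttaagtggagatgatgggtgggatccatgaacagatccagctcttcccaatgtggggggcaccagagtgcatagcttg
TFPI2: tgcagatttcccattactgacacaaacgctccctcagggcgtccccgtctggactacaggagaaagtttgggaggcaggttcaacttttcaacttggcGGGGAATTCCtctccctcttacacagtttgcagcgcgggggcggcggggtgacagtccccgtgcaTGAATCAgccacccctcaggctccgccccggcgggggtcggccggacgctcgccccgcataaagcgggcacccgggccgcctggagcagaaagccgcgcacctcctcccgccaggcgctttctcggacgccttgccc
EREG: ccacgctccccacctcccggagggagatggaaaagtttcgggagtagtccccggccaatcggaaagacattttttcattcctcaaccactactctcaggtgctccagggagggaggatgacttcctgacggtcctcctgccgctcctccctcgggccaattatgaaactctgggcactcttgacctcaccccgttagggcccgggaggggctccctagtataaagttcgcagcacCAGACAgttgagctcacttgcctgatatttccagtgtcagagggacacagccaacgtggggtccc
The IL11 window is chr19:55370414-55370713 (minus strand) and holds TGAGTCA at -96. The DCLK1 window, chr13:36131890-36132189 (minus strand), holds TGACTCA at -45 and GGGGCTTTCC at -170. The TFPI2 window, chr7:93890704-93891003 (minus strand), holds TGAATCA at -87 and GGGGAATTCC at -152. The EREG window, chr4:74364895-74365194 (plus strand), holds CAGACA at -15. Searched on both strands, with no overlap between the motifs shown, TGANTCA (AP-1) occurred in 7.71% of 35116 promoter windows, the NF-κB motif (GGG, any 3 bases, then TTCC) in 6.52% and CAGACA (SMAD box) in 16.9%. Also searched were TGACGTCA (CRE), TTTCCCGC (E2F), TTTGAA (CHR) and GTCTAGAC (SMAD palindrome), none of which occurred in these 4 windows. A window was found for 31 of the 46 protein-coding genes among the 58, too few for a share over the genes to be read. The AP-1 letters stood in 4 of 16 windows of negative genes and 2 of 15 of positive ones. The SMAD box stood in 3 of 16 and 1 of 15. A match is a description of letters and not a bound site.

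In a list of TGFβ feedback inhibitors and SMAD targets, 3 of 22 tested members were called (13.6%, against 0.282% of all tested genes). These were IL11, TGFBI and KLF10, all with a negative interaction. The count was 0 without TGFβ library 4, TGFβ library 5, alisertib library 7, alisertib library 8 or TGFβ+alisertib library 11. It was 7 (31.8%) by DESeq2 and without the 4 libraries that stood apart, and 11 (50%) with the covariate. All 7 by DESeq2 were negative. Without the 4 libraries 6 were negative and with the covariate 10, and in both of these fits NEDD9 was positive. Over all tested genes the share called was 0.943% by DESeq2, 3.59% without the 4 libraries and 3.4% with the covariate. The median log2 interaction of the 22 was -0.20, against 0.01 over all tested genes, with 17 below 0 and 5 above. IL11 (ENSG00000095752, chr19:55875757-55881831 in hg19) encodes a cytokine of the interleukin-6 family and is a known TGFβ target. Its level was 116, 124 and 129 CPM with both agents and 123, 120.5 and 117 CPM with TGFβ, against 61.5, 54.3 and 52.0 CPM with alisertib and 38.9, 39.0 and 36.7 CPM in untreated cells. Libraries with and without alisertib overlapped under TGFβ and did not overlap in its absence. The log2 fold change of alisertib was 0.04 with TGFβ (95% interval -0.10 to 0.17) and 0.55 without it (0.42 to 0.69), a log2 interaction of -0.52 (SE 0.09, adjusted p 0.0258).

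TGFBI, an extracellular matrix protein secreted in response to TGFβ (chr5:135364584-135399507), was the negative gene in which alisertib had opposite called responses. It measured 2548, 2551 and 2700.1 CPM with both agents and 3042, 3103 and 3062 CPM with TGFβ, against 391, 392 and 385 CPM with alisertib and 329, 352 and 361 CPM in untreated cells. Every library with both agents lay below every TGFβ library, while every alisertib library lay above every untreated one. Alisertib lowered TGFBI, with a log2 fold change of -0.24 with TGFβ (adjusted p 0.0124) and raised it by 0.16 without TGFβ (adjusted p 0.0428), and the log2 interaction was -0.40 (SE 0.06, adjusted p 0.0157). KLF10, a zinc-finger repressor induced early by TGFβ, had 125, 126 and 131 CPM with both agents and 121, 119.5 and 122 CPM with TGFβ, against 68.0, 64.5 and 66.8 CPM with alisertib and 47.4, 47.6 and 52.2 CPM in untreated cells. Neither pair overlapped. The log2 fold change of alisertib was 0.08 with TGFβ (adjusted p 0.568), and alisertib raised KLF10 by 0.44 without TGFβ (adjusted p 0.000108). The log2 interaction of KLF10 was -0.36 (SE 0.07, adjusted p 0.0408).

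The other SMAD targets named here did not pass in edgeR's test over all 12 libraries. The feedback inhibitor PMEPA1 had a log2 interaction of -0.35 (-0.55 to -0.16, adjusted p 0.198), and the inhibitory SMAD7 one of -0.17 (-0.34 to 0.00, adjusted p 0.886). PTHLH, a parathyroid hormone-related peptide that TGFβ is known to induce in bone-metastatic breast cancer cells, had the lowest log2 interaction of the list, -0.70 (SE 0.15, adjusted p 0.0817), and means of 10.2 CPM with both agents and 10.8 CPM with TGFβ, against 1.24 CPM with alisertib and 0.806 CPM in untreated cells. DESeq2, the covariate and the offset on GC content each gave calls of PMEPA1 (adjusted p 0.0427, 0.0237 and 0.0116) and of PTHLH. These were the 3 of 22 alternative fits that called PMEPA1. It was called in 0 of 12 fits that left out 1 library, and not without the 4 libraries (adjusted p 0.104). PTHLH had adjusted p 0.0242 without the 4 libraries and 0.00438 with the covariate, and SMAD7 was called in none of the 22 alternative fits.

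**Figure D3:**
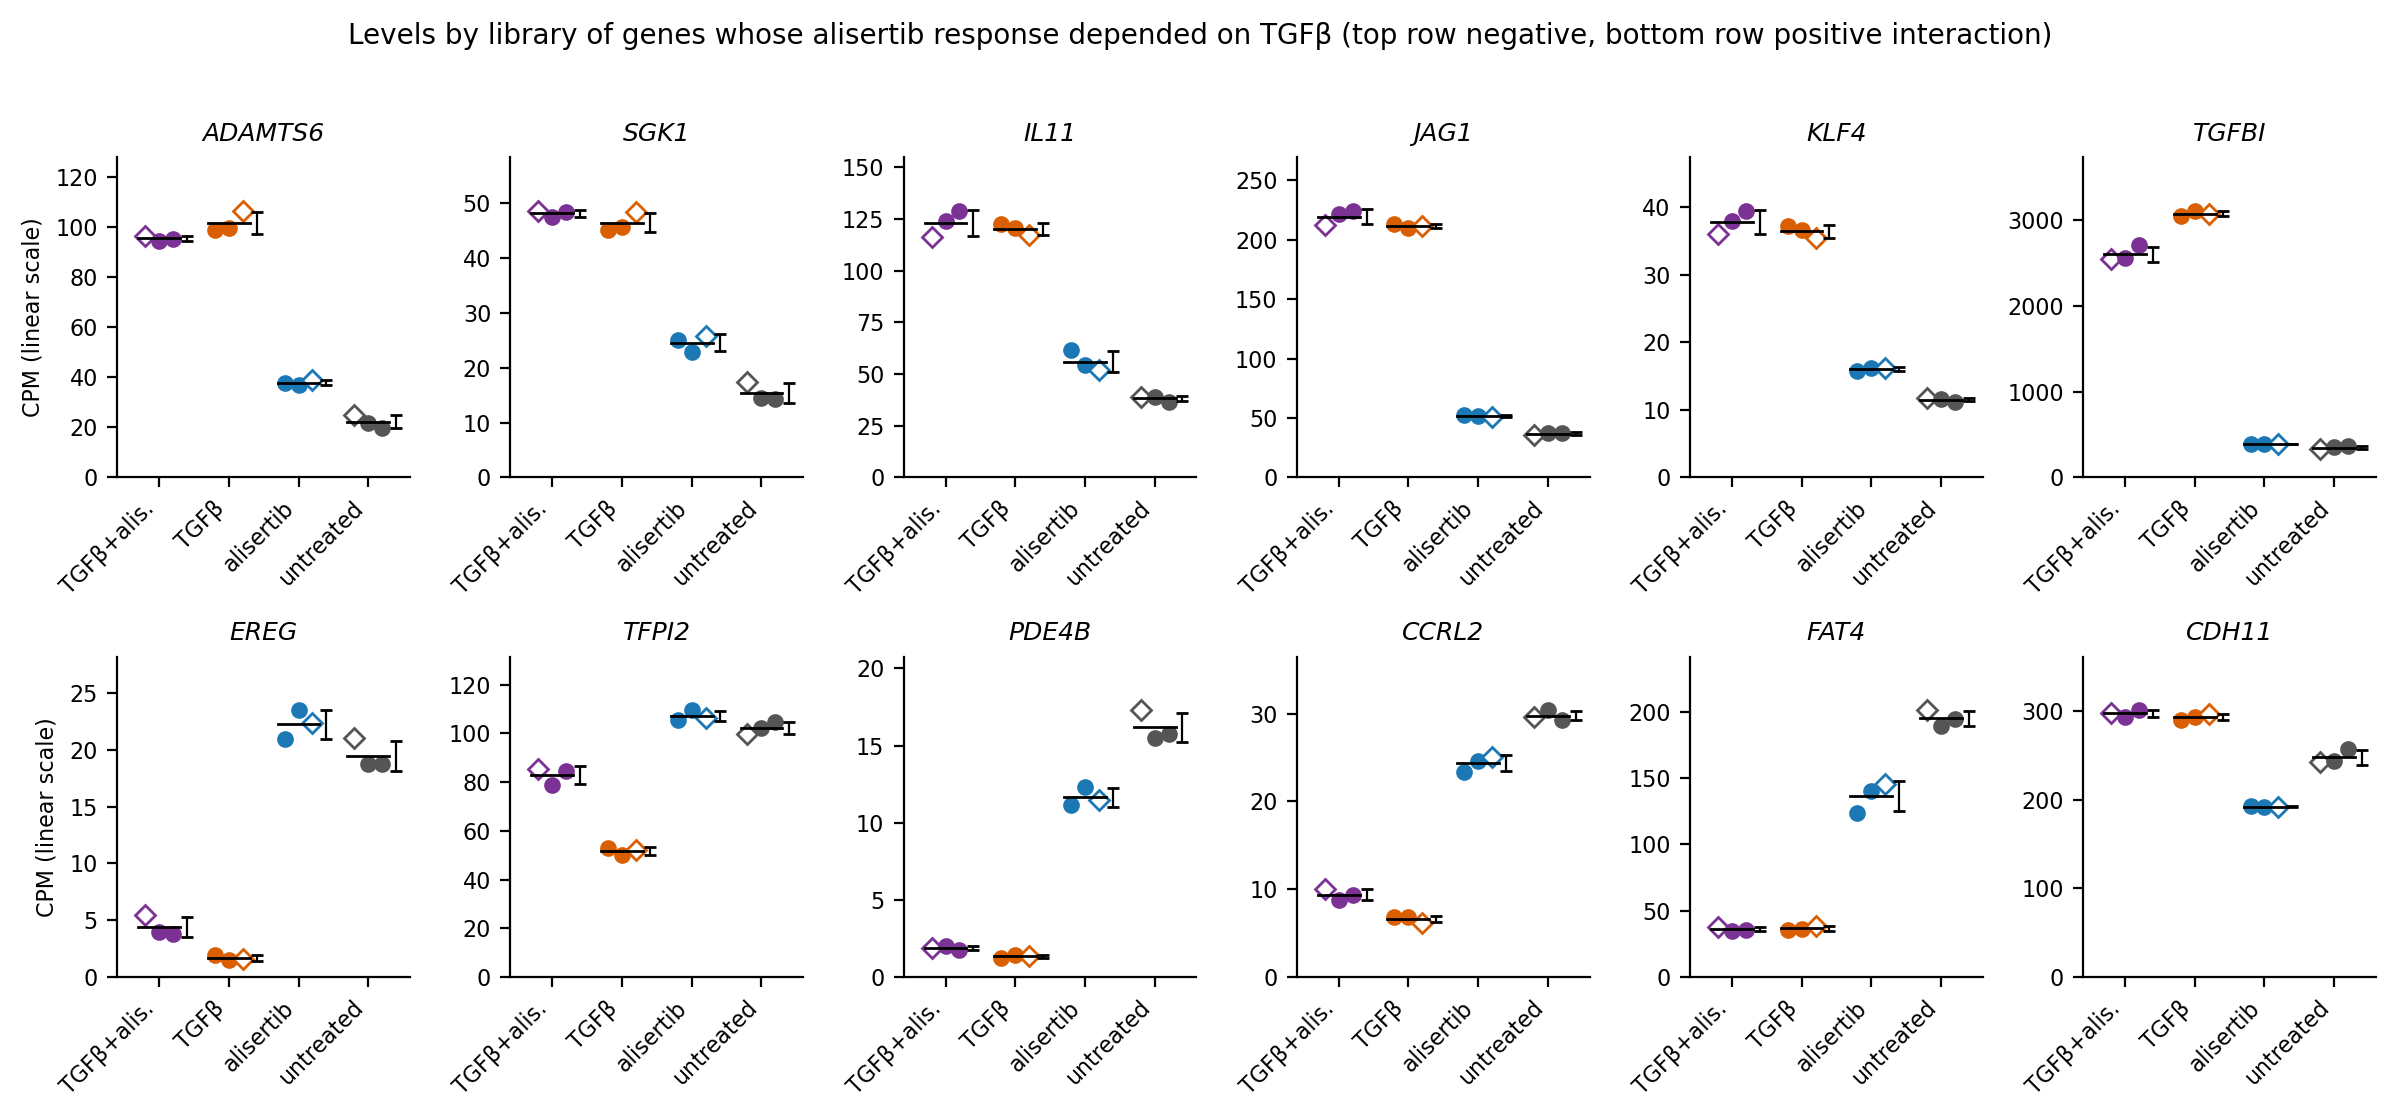
CPM on a linear scale (y axes from 0) of 12 genes by library and group, with open diamonds for the 4 libraries that stood apart, horizontal bars for means and error bars for SD (n = 3 per group). In the top row alisertib raised the genes in the absence of TGFβ, and TGFBI was lower with both agents than with TGFβ; in the bottom row EREG and TFPI2 rose with alisertib under TGFβ, whereas FAT4 and CDH11 fell with alisertib in its absence.

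Among extracellular proteases and their inhibitors 1 of 23 tested members was called (4.35%, against 0.282% of all tested genes). This was ADAMTS6, a secreted metalloproteinase with thrombospondin motifs (chr5:64444563-64777747). It had 96.7, 94.7 and 95.5 CPM with both agents and 98.9, 99.7 and 107 CPM with TGFβ, against 37.8, 37.0 and 39.0 CPM with alisertib and 25.0, 21.9 and 19.9 CPM in untreated cells. Every library with both agents was a little below every TGFβ library, and every alisertib library was above every untreated one. The log2 fold change of alisertib was -0.09 with TGFβ (-0.23 to 0.06) and 0.77 without it (0.62 to 0.92), and the log2 interaction of -0.86 (SE 0.10, adjusted p 0.00294) was called in 12 of 12 fits that left out 1 library. The median of the 23 members was -0.12 on the log2 scale, with 17 below 0. DESeq2 called 4 of the 23, MMP9 and ADAM19 included (17.4%, against 0.943% of all genes it tested). The gelatinase MMP9 had the lowest value, -1.09 (SE 0.23, adjusted p 0.0696), and reached adjusted p 0.000126 without the 4 libraries and 2.29e-07 with the covariate.

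FAP, a cell-surface serine protease known as a marker of activated fibroblasts (chr2:163027194-163101661), had 33.0, 30.7 and 31.9 CPM with both agents and 32.8, 32.2 and 37.9 CPM with TGFβ, against 0.613, 0.553 and 0.679 CPM with alisertib and 0.317, 0.203 and 0.361 CPM in untreated cells. It was below 1 CPM in every library without TGFβ, and within that low range alisertib libraries lay above untreated ones. The log2 interaction was -1.17 (95% interval -1.60 to -0.74, adjusted p 0.0281), called in 3 of 12 fits that left out 1 library. CST1 encodes cystatin SN, a secreted inhibitor of cysteine proteases (chr20:23728190-23731905). Its values were 75.5, 81.9 and 85.0 CPM with both agents and 66.2, 65.8 and 66.2 CPM with TGFβ, against 17.4, 17.2 and 16.7 CPM with alisertib and 7.85, 10.0 and 9.33 CPM in untreated cells. Neither pair overlapped, and alisertib passed its own test for CST1 without TGFβ (log2 fold change 0.91, adjusted p 2.26e-05) but not with it (0.29, adjusted p 0.0602). In CPM its gain from alisertib was 6.70 CPM larger with TGFβ, while the log2 interaction was -0.62 (SE 0.11, adjusted p 0.0258). SCG5, the 7B2 chaperone of a prohormone convertase (chr15:32933877-32989299), averaged 66.6 ± 2.60 CPM with both agents and 58.7 ± 2.71 CPM with TGFβ, against 20.04 ± 1.11 CPM with alisertib and 10.8 ± 1.05 CPM in untreated cells (SD, n = 3 each). Its log2 interaction was -0.71 (SE 0.10, adjusted p 0.0097).

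SGK1, a serum- and glucocorticoid-induced kinase that regulates ion transport and survival (chr6:134490384-134639250), had 48.6, 47.4 and 48.4 CPM with both agents and 45.1, 45.7 and 48.4 CPM with TGFβ, against 25.1, 22.9 and 25.8 CPM with alisertib and 17.5, 14.5 and 14.3 CPM in untreated cells. The TGFβ groups overlapped and the other pair did not. The log2 fold change of alisertib was 0.05 with TGFβ (-0.11 to 0.21) and 0.67 without it (0.51 to 0.84), a log2 interaction of -0.62 (SE 0.11, adjusted p 0.0258). DCLK1, a kinase with doublecortin domains that binds microtubules (chr13:36345478-36705443), had 40.7, 38.1 and 41.0 CPM with both agents and 28.1, 27.8 and 30.1 CPM with TGFβ, against 1.78, 1.53 and 1.88 CPM with alisertib and 0.782, 0.620 and 0.782 CPM in untreated cells. Here neither pair overlapped: alisertib raised DCLK1 by a log2 fold change of 0.48 with TGFβ (adjusted p 0.00567) and 1.25 without it (adjusted p 2.56e-05). The log2 interaction of DCLK1 was -0.77 (SE 0.14, adjusted p 0.0297), whereas in CPM its gain from alisertib was larger with TGFβ, by 10.2 CPM. PTPRR, a tyrosine phosphatase that acts on MAP kinases (chr12:71031853-71314623), averaged 12.8 ± 0.481 CPM with both agents and 10.5 ± 0.303 CPM with TGFβ, against 5.64 ± 0.428 CPM with alisertib and 2.65 ± 0.315 CPM in untreated cells (SD, n = 3 each), with a log2 interaction of -0.79 (SE 0.13, adjusted p 0.0214).

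Of 13 tested NOTCH pathway genes 1 was called, JAG1 (7.69%, against 0.282% of all tested genes). The receptor NOTCH1 was called besides it without the 4 libraries and with the covariate. JAG1 is a ligand of NOTCH receptors (chr20:10618332-10654694). Its level was 212, 221 and 224 CPM with both agents and 213, 209.6 and 211 CPM with TGFβ, against 52.4, 51.6 and 50.4 CPM with alisertib and 35.5, 37.6 and 37.3 CPM in untreated cells. The TGFβ groups overlapped, and the alisertib libraries stood above all untreated ones. Alisertib gave a log2 fold change of 0.05 with TGFβ (-0.03 to 0.14) and 0.48 without it (0.39 to 0.58), and the log2 interaction of -0.43 (SE 0.06, adjusted p 0.00804) was called in 12 of 12 fits that left out 1 library. The symbol JAG1 stands on 2 overlapping gene identifiers between which reads could be split, and these values are those of the one with more counts, ENSG00000101384.

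Of 12 tested KLF transcription factors 2 were called (16.7%, against 0.282% of all tested genes), both negative. They were KLF10 above and KLF4, a factor of stem-like and epithelial states (chr9:110247133-110252763). KLF4 had 36.0, 38.0 and 39.5 CPM with both agents and 37.3, 36.7 and 35.4 CPM with TGFβ, against 15.7, 16.2 and 16.3 CPM with alisertib and 11.7, 11.7 and 11.2 CPM in untreated cells. Its alisertib and untreated libraries did not overlap, with a log2 fold change of 0.47 without TGFβ and 0.05 with it. The log2 interaction was -0.42 (SE 0.08, adjusted p 0.0386). The list as a whole had a median of -0.01 and ran from -0.42 for KLF4 to 0.13 for KLF9, and KLF7 was a further negative call by DESeq2, without the 4 libraries and with the covariate.

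The remaining negative genes that were named encode membrane, structural and other proteins. KCNJ15, an inwardly rectifying potassium channel (chr21:39529128-39679279), had 52.6, 53.4 and 55.3 CPM with both agents and 58.0, 57.5 and 60.3 CPM with TGFβ, against 10.6, 9.53 and 10.7 CPM with alisertib and 8.11, 7.40 and 7.09 CPM in untreated cells. Every library with both agents was below every TGFβ library, and every alisertib library above every untreated one. The alisertib response passed its test without TGFβ (log2 fold change 0.45, adjusted p 0.000987) and was -0.12 with it (adjusted p 0.436), for a log2 interaction of -0.57 (SE 0.09, adjusted p 0.016). MARCH4, now MARCHF4, is a membrane-bound ubiquitin ligase (chr2:217122588-217236750). It averaged 43.7 ± 2.68 CPM with both agents and 44.3 ± 1.61 CPM with TGFβ, against 12.7 ± 1.09 CPM with alisertib and 7.63 ± 0.375 CPM in untreated cells (SD, n = 3 each), and its log2 interaction was -0.76 (SE 0.10, adjusted p 0.00732).

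MYH15, a myosin heavy chain (chr3:108099216-108248169), had 138, 136 and 136 CPM with both agents and 126, 127 and 129.7 CPM with TGFβ, against 38.3, 40.6 and 44.3 CPM with alisertib and 24.9, 21.7 and 21.2 CPM in untreated cells. Neither pair overlapped. Its log2 interaction was -0.76 (SE 0.09, adjusted p 0.00423), with an alisertib response of 0.10 with TGFβ (adjusted p 0.594) and 0.86 without it (adjusted p 6.67e-06). HSF2BP, which binds heat shock factor 2 and acts in meiotic recombination (chr21:44949072-45079374), averaged 26.0 ± 0.797 CPM with both agents and 25.8 ± 1.21 CPM with TGFβ, against 5.02 ± 0.0966 CPM with alisertib and 3.34 ± 0.268 CPM in untreated cells (SD, n = 3 each; log2 interaction -0.58, adjusted p 0.0297). C4orf26, now ODAPH, encodes a phosphoprotein of tooth enamel (chr4:76481258-76491095). It averaged 194 ± 7.12 CPM with both agents and 181 ± 9.65 CPM with TGFβ, against 9.08 ± 0.547 CPM with alisertib and 5.83 ± 0.191 CPM in untreated cells (SD, n = 3 each). Its log2 interaction was -0.54 (adjusted p 0.0116), while in CPM the gain from alisertib was 9.21 CPM larger with TGFβ. The difference of differences had the same sign in CPM as on the log2 scale in 51 of the 58 genes. It had the opposite sign in 7, among them RP11-54A9.1, DCLK1, CST1, C4orf26, FBXO32 and EREG, and for these the sign of the interaction belongs to the log2 scale.

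Besides 46 protein-coding genes the 58 hold 9 long intergenic RNAs, 1 processed transcript and 2 pseudogenes; those named next were chosen after their values were seen. The smallest adjusted p of all was that of LINC00880 (chr3:156799456-156840793), with 16.0, 16.4 and 16.3 CPM with both agents and 15.3, 15.3 and 14.3 CPM with TGFβ, against 8.11, 8.14 and 7.15 CPM with alisertib and 3.45, 2.93 and 3.26 CPM in untreated cells. Alisertib raised this RNA by a log2 fold change of 1.28 without TGFβ, and its value with TGFβ was 0.11 (-0.05 to 0.28), for a log2 interaction of -1.17 (SE 0.11, adjusted p 0.00162). LINC00973 was the gene whose TGFβ response had opposite signs, each past its test. It had 28.4, 26.8 and 26.9 CPM with both agents and 19.8, 19.9 and 19.9 CPM with TGFβ, against 32.0, 34.5 and 33.7 CPM with alisertib and 18.4, 15.3 and 14.5 CPM in untreated cells. TGFβ lowered LINC00973 in alisertib-treated cells, with a log2 fold change of -0.29 (adjusted p 0.00879) and raised it by 0.31 in cells without alisertib (adjusted p 0.00581).

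Among the 24 positive genes, 8 had an alisertib response past its test with TGFβ alone, 12 without TGFβ alone and 4 in both with opposite signs. EREG, or epiregulin, a ligand of the EGF receptor (chr4:75230860-75254468), had the highest log2 interaction of the named genes. It had 5.45, 3.97 and 3.79 CPM with both agents and 1.94, 1.499 and 1.57 CPM with TGFβ, against 20.9, 23.5 and 22.3 CPM with alisertib and 21.0, 18.8 and 18.7 CPM in untreated cells. Every library with both agents was above every TGFβ library, library 10 being the highest, whereas the alisertib and untreated libraries overlapped. Alisertib raised EREG by a log2 fold change of 1.40 with TGFβ (1.10 to 1.70) against 0.19 without it (-0.07 to 0.45), and the log2 interaction was 1.21 (SE 0.18, adjusted p 0.0125). In CPM the difference of differences was -0.00791, close to 0. Of 11 tested EGF receptor ligands and receptors EREG alone was called by edgeR over all 12 libraries and by DESeq2. That is 9.09% in each, against 0.282% and 0.943% of all tested genes. With the covariate TGFA was called besides EREG in the positive direction and EGFR and HBEGF in the negative one, and without the 4 libraries NRG1 in the negative one. The median log2 interaction was 0.15, with 8 above 0, and TGFA, another ligand, had 0.23 (SE 0.07, adjusted p 0.283).

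TFPI2, a secreted inhibitor of serine proteases (chr7:93514709-93520303), had the smallest adjusted p of the positive genes. Its level was 85.5, 78.7 and 84.5 CPM with both agents and 52.8, 49.9 and 52.3 CPM with TGFβ, against 106, 109 and 106 CPM with alisertib and 99.8, 102 and 105 CPM in untreated cells. All libraries with both agents stood above all TGFβ libraries and below all alisertib and untreated ones. The log2 fold change of alisertib was 0.68 with TGFβ (0.58 to 0.78) and 0.07 without it (-0.03 to 0.16). TGFβ lowered TFPI2, with log2 fold changes of -0.37 with alisertib and -0.99 without it, and the interaction of 0.62 (SE 0.07, adjusted p 0.00245) was called in 12 of 12 fits that left out 1 library.

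DUSP4, a phosphatase that switches off ERK and other MAP kinases, was the gene called by edgeR over all 12 libraries among 19 ERK feedback genes (5.26%, against 0.282% of all tested genes). It had 129, 130.0 and 126 CPM with both agents and 103, 103 and 108 CPM with TGFβ, against 153, 159 and 151 CPM with alisertib and 153, 158 and 157 CPM in untreated cells. The TGFβ libraries were the lowest and overlapped no other group, while alisertib and untreated libraries overlapped. Alisertib raised DUSP4 by 0.29 with TGFβ (adjusted p 0.00185), and its value without TGFβ was -0.02 (adjusted p 0.873), for a log2 interaction of 0.31 (SE 0.06, adjusted p 0.043). DUSP1, another MAP kinase phosphatase, had -0.52 (SE 0.11, adjusted p 0.0694). It was called in the negative direction by DESeq2, without the 4 libraries (adjusted p 0.00317) and with the covariate (adjusted p 3.74e-05). In the latter 2 fits DUSP4, SPRED1 and PHLDA1 of the list were positive calls, as was DUSP6 with the covariate. DUSP1 had means of 28.4 CPM with both agents and 24.2 CPM with TGFβ, against 15.5 CPM with alisertib and 9.21 CPM in untreated cells.

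PDE4B, a phosphodiesterase that degrades cyclic AMP (chr1:66258197-66840259), was the gene called among 15 ion channel and cyclic AMP genes (6.67%, against 0.282% of all tested genes). It had 1.91, 1.99 and 1.77 CPM with both agents and 1.24, 1.42 and 1.38 CPM with TGFβ, against 11.2, 12.3 and 11.5 CPM with alisertib and 17.3, 15.5 and 15.7 CPM in untreated cells. Neither pair overlapped, and the order within each pair was reversed: alisertib raised PDE4B by 0.49 with TGFβ (adjusted p 0.0164) and lowered it without TGFβ, with a log2 fold change of -0.47 (adjusted p 0.00263). The log2 interaction was 0.96 (SE 0.12, adjusted p 0.00674). Its relatives PDE4D and PDE7B, also cyclic AMP phosphodiesterases, had log2 interactions of 0.53 (SE 0.11, adjusted p 0.0829) and 0.53 (SE 0.11, adjusted p 0.0763). PDE4D averaged 19.9 CPM with both agents and 18.2 CPM with TGFβ, against 35.0 CPM with alisertib and 46.1 CPM in untreated cells. The matching means of PDE7B were 11.0 CPM with both agents and 11.8 CPM with TGFβ, against 52.5 CPM with alisertib and 81.2 CPM in untreated cells. Both were called by DESeq2 and without the 4 libraries that stood apart (adjusted p 0.00186 for PDE4D and 0.000971 for PDE7B).

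CCRL2, an atypical receptor that binds chemerin (chr3:46448654-46454488), had 10.0, 8.75 and 9.39 CPM with both agents and 6.78, 6.83 and 6.17 CPM with TGFβ, against 23.3, 24.6 and 25.1 CPM with alisertib and 29.6, 30.4 and 29.3 CPM in untreated cells. As in PDE4B, alisertib libraries were above their partners under TGFβ (log2 fold change 0.51, adjusted p 0.00158) and below them without it (-0.29, adjusted p 0.0193). The log2 interaction was 0.80 (SE 0.10, adjusted p 0.00437). CNKSR3, a scaffold protein of kinase signalling (chr6:154708638-154831793), had 2.50, 1.88 and 2.04 CPM with both agents and 1.2002, 1.31 and 1.42 CPM with TGFβ, against 18.2, 16.8 and 17.1 CPM with alisertib and 18.7, 18.8 and 18.6 CPM in untreated cells. CNKSR3 was low in both groups with TGFβ, and alisertib raised it there by a log2 fold change of 0.70 (adjusted p 0.00355) against a value of -0.11 without TGFβ (adjusted p 0.578), for a log2 interaction of 0.81 (SE 0.14, adjusted p 0.0297). RCSD1, a regulator of actin capping protein (chr1:167599330-167675486), averaged 4.64 ± 0.480 CPM with both agents and 3.11 ± 0.224 CPM with TGFβ, against 21.4 ± 0.999 CPM with alisertib and 24.7 ± 1.97 CPM in untreated cells (SD, n = 3 each; log2 interaction 0.79, adjusted p 0.0228). ABCA1, which exports cholesterol (chr9:107543283-107690518), had 61.0, 59.5 and 58.4 CPM with both agents and 43.0, 44.9 and 47.4 CPM with TGFβ, against 56.9, 68.6 and 63.4 CPM with alisertib and 64.8, 74.8 and 76.2 CPM in untreated cells. TGFβ lowered ABCA1 without alisertib (log2 fold change -0.67, adjusted p 4.41e-06), while with alisertib the change was -0.08 (-0.24 to 0.08), and the log2 interaction was 0.59 (SE 0.10, adjusted p 0.0311).

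For 12 positive genes alisertib passed its test without TGFβ alone, each time lowering the gene. SLC1A3, a glutamate and aspartate transporter (chr5:36606457-36688436), had 5.42, 4.73 and 4.46 CPM with both agents and 4.79, 4.10 and 3.75 CPM with TGFβ, against 13.2, 15.3 and 13.5 CPM with alisertib and 21.9, 22.8 and 21.2 CPM in untreated cells. The TGFβ groups overlapped and all alisertib libraries were below all untreated ones, with a log2 interaction of 0.86 (SE 0.14, adjusted p 0.025). FAT4, a giant protocadherin of planar polarity and Hippo signalling (chr4:126237554-126414087), had 38.0, 34.8 and 35.3 CPM with both agents and 35.5, 36.0 and 38.8 CPM with TGFβ, against 124, 140.4 and 146 CPM with alisertib and 201, 189 and 195 CPM in untreated cells. Alisertib lowered FAT4 without TGFβ, with a log2 fold change of -0.51 (-0.65 to -0.38) and its value with TGFβ was -0.03 (-0.16 to 0.11), giving a log2 interaction of 0.49 (SE 0.09, adjusted p 0.0386). TRIB2, a pseudokinase that scaffolds ubiquitin ligases (chr2:12857015-12882860), averaged 31.9 ± 1.43 CPM with both agents and 29.95 ± 0.489 CPM with TGFβ, against 64.8 ± 0.743 CPM with alisertib and 87.9 ± 5.91 CPM in untreated cells (SD, n = 3 each; log2 interaction 0.53, adjusted p 0.0111). FOXQ1, a forkhead transcription factor linked to epithelial plasticity (chr6:1312675-1314992), averaged 2.76 ± 0.160 CPM with both agents and 2.49 ± 0.0868 CPM with TGFβ, against 5.87 ± 0.168 CPM with alisertib and 8.37 ± 0.364 CPM in untreated cells (SD, n = 3 each), with a log2 interaction of 0.66 (adjusted p 0.0311). In all 4 the TGFβ libraries lay below the untreated ones.

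The adaptor SORBS2 (chr4:186506598-186877806) averaged 3.70 ± 0.172 CPM with both agents and 3.01 ± 0.0398 CPM with TGFβ, against 11.2 ± 0.710 CPM with alisertib and 13.8 ± 0.641 CPM in untreated cells (SD, n = 3 each; log2 interaction 0.60, adjusted p 0.0377). ADAM28, a membrane-anchored metalloproteinase, had the lowest log2 fold change of alisertib without TGFβ among the 24 genes, -0.77 (adjusted p 0.000175). It averaged 5.09 ± 0.364 CPM with both agents and 5.29 ± 0.365 CPM with TGFβ, against 15.4 ± 1.28 CPM with alisertib and 26.2 ± 2.22 CPM in untreated cells (SD, n = 3 each; log2 interaction 0.71, adjusted p 0.0363).

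CDH11, a cadherin of mesenchymal cells (chr16:64977656-65160015), was the gene of the 58 whose TGFβ response was called in both settings and larger with alisertib. It had 298, 294 and 301 CPM with both agents and 290.1, 294 and 297 CPM with TGFβ, against 193, 192 and 192 CPM with alisertib and 243, 244 and 257 CPM in untreated cells. The groups with TGFβ overlapped, and the alisertib libraries were the lowest of all. TGFβ raised CDH11 by a log2 fold change of 0.63 with alisertib (0.55 to 0.71) and 0.24 without it (0.16 to 0.33), for a log2 interaction of 0.39 (SE 0.05, adjusted p 0.0097). With FAP it made 2 called genes of 13 tested mesenchymal markers (15.4%, against 0.282% of all tested genes), 1 in each direction.

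**Figure D4:**
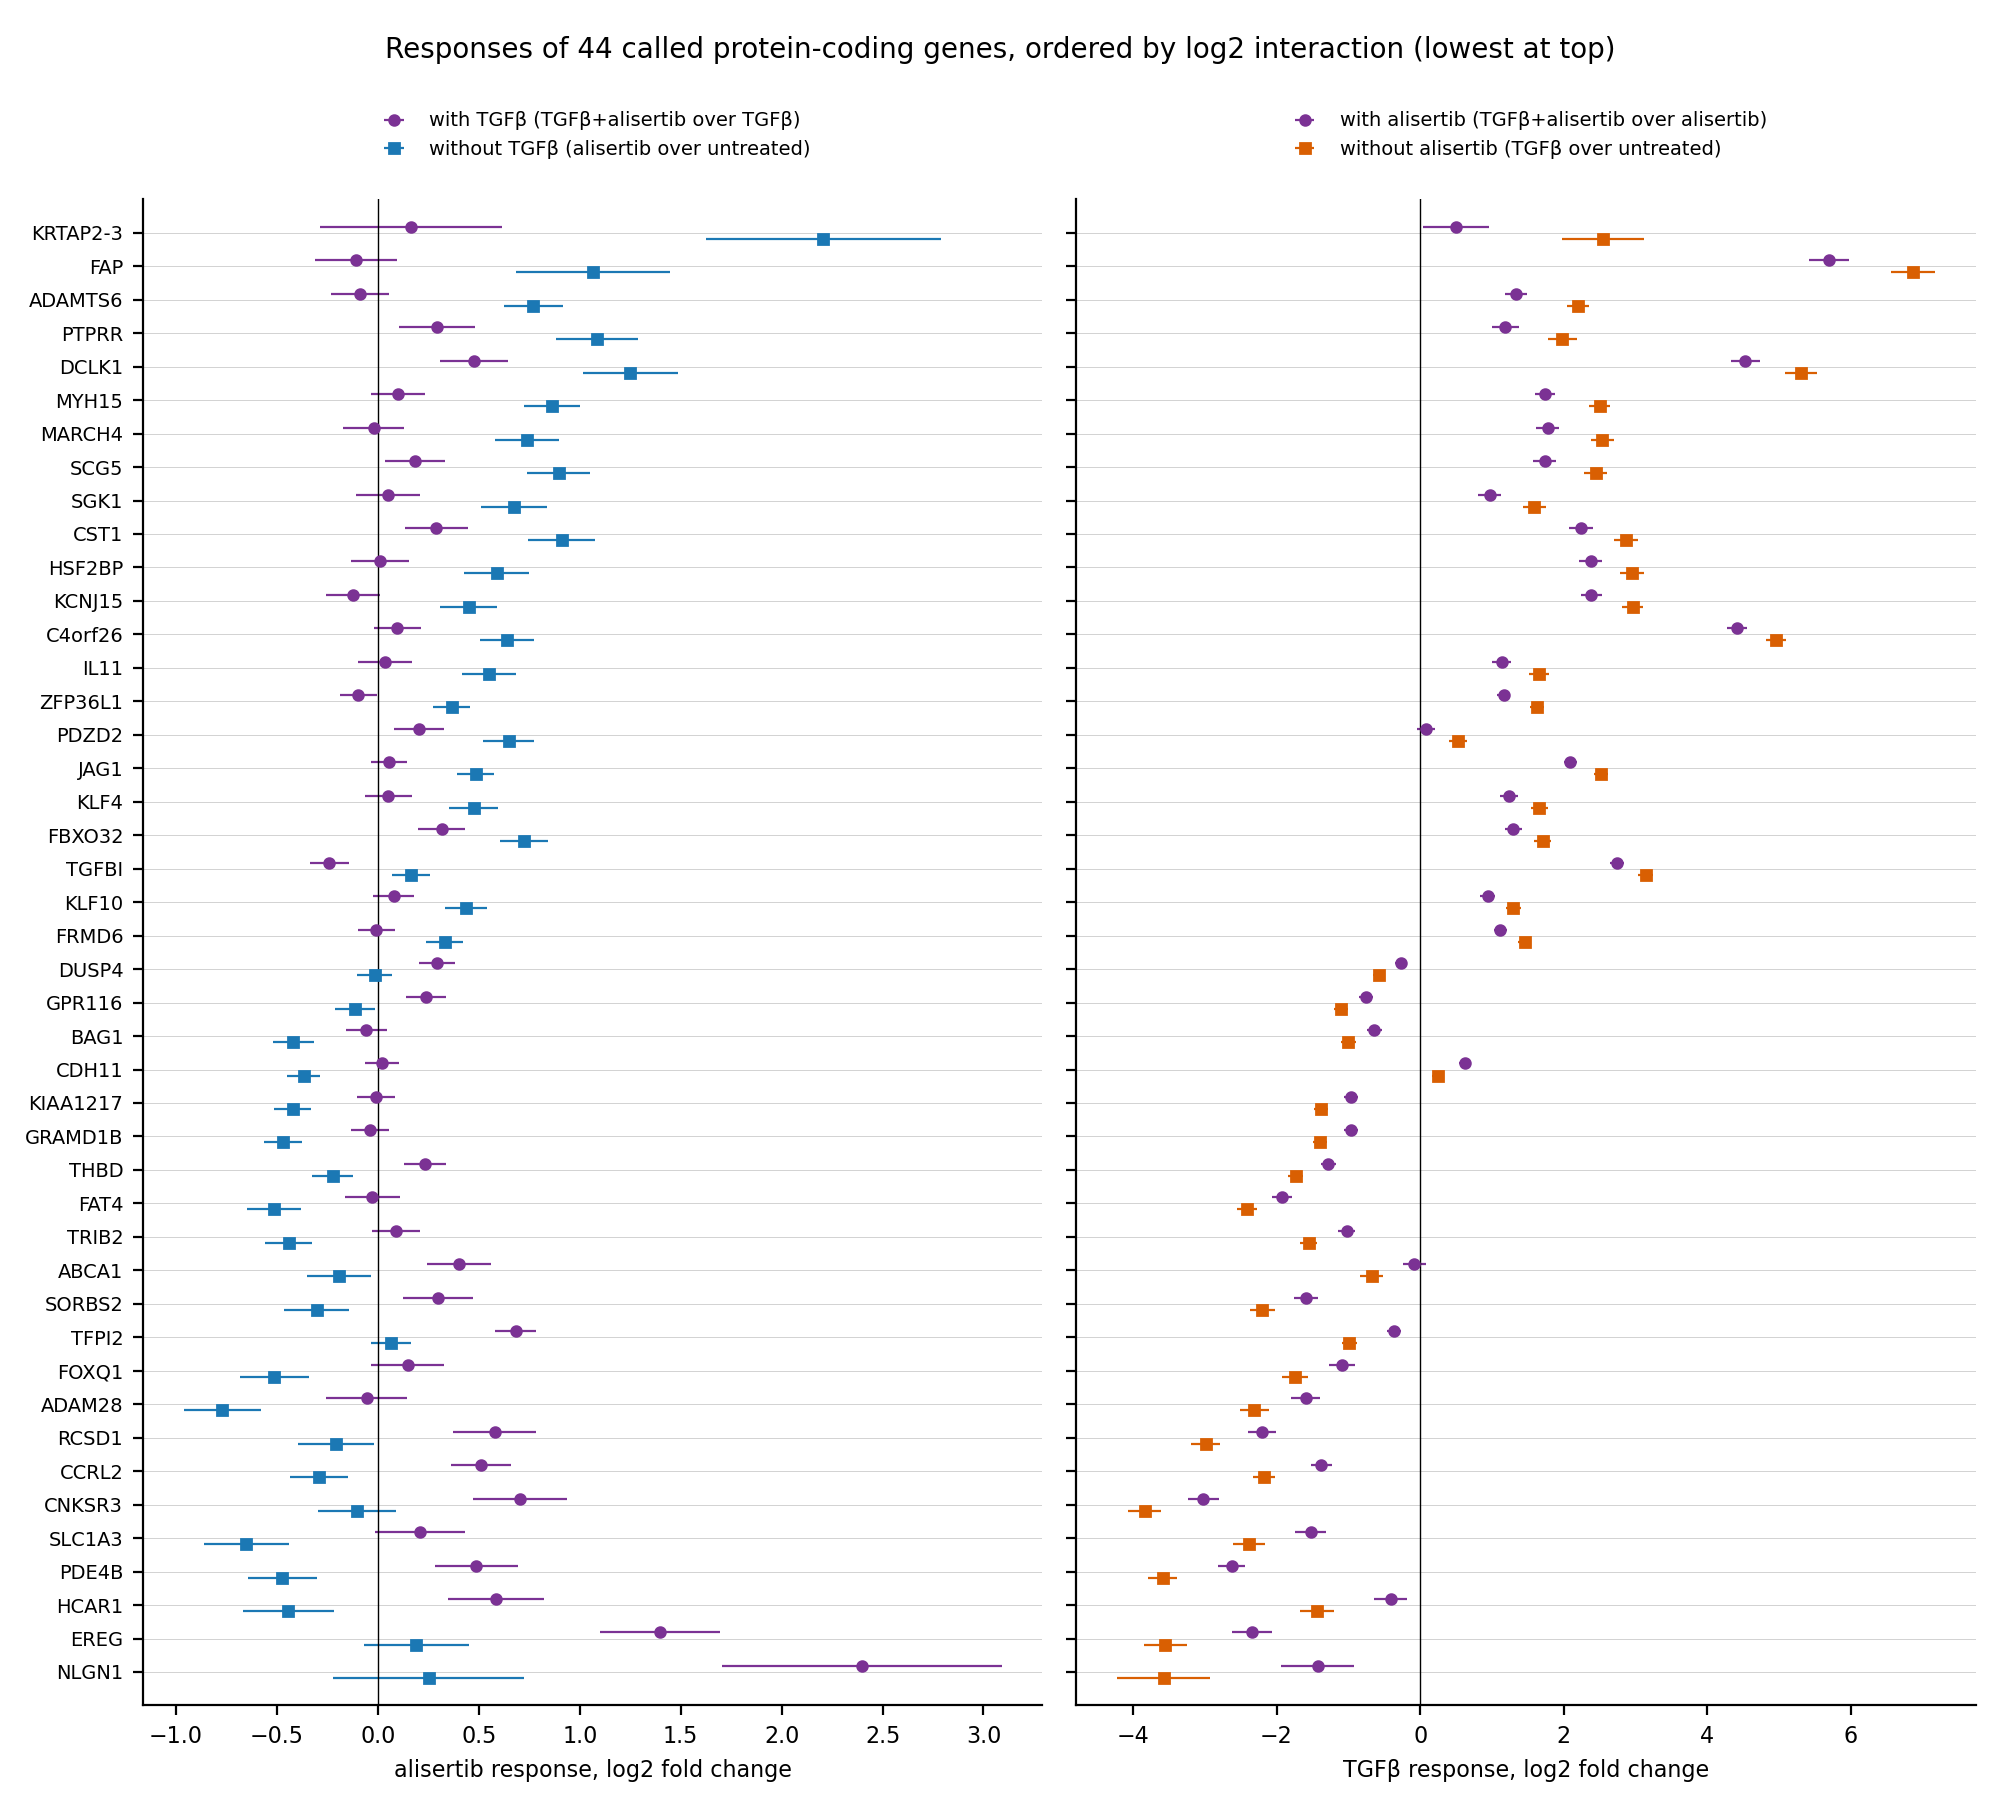
Log2 fold changes with 95% intervals (x axes) of 44 of the called protein-coding genes (rows, lowest log2 interaction at the top), on the left for alisertib with and without TGFβ and on the right for TGFβ with and without alisertib. Of these genes 22 have a negative and 22 a positive interaction, and for CDH11 the TGFβ response is larger with alisertib, 0.63 against 0.24.

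CDH1, SNAI1 and VIM, core markers of epithelial to mesenchymal transition, did not pass the interaction test in edgeR's fit over all 12 libraries or in any of 22 alternative fits. E-cadherin, CDH1, had 2.19, 2.28 and 2.04 CPM with both agents and 1.95, 1.93 and 1.55 CPM with TGFβ, against 4.50, 5.04 and 4.85 CPM with alisertib and 5.14, 5.88 and 5.62 CPM in untreated cells. Its log2 interaction was 0.47 (0.14 to 0.80, adjusted p 0.415). The transcription factor SNAI1 averaged 10.2 ± 1.77 CPM with both agents and 10.1 ± 1.196 CPM with TGFβ, against 1.02 ± 0.238 CPM with alisertib and 0.811 ± 0.278 CPM in untreated cells (SD, n = 3 each), and its interval, -0.97 to 0.33, allows changes of either sign. For the intermediate filament vimentin, VIM, the interval was narrow, -0.21 to 0.03 around -0.09. Of 16 tested epithelial markers and 5 EMT transcription factors none was called by edgeR over all 12 libraries or by DESeq2, with 3 and 1 at an unadjusted p under 0.05. Without the 4 libraries CLDN4, JUP and MUC1 were called in the positive direction and the transcription factor SNAI2 in the negative one (adjusted p 0.000186). With the covariate CLDN4 was again positive, KRT7 and SNAI2 negative (adjusted p 0.0305 for SNAI2).

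CIITA, the master activator of MHC class II genes (chr16:10971055-11026079), had 1.94, 1.58 and 1.06 CPM with both agents and 0.928, 0.937 and 0.953 CPM with TGFβ, against 24.1, 26.1 and 23.7 CPM with alisertib and 24.4, 29.9 and 32.4 CPM in untreated cells. All libraries with both agents exceeded all TGFβ libraries, at levels far below those without TGFβ. The log2 interaction was 0.92 (0.43 to 1.41, adjusted p 0.164), and 0.80 without the 4 libraries that stood apart (adjusted p 0.0142). CIITA was called in 3 of 22 alternative fits, including 1 of 12 that left out 1 library, and was not called with the covariate. Its targets HLA-DMA, HLA-DPA1 and HLA-DPB1 had log2 interactions of 0.47, 0.45 and 0.48, at adjusted p of 0.164, 0.171 and 0.232. Without the 4 libraries all 3 were called (adjusted p 0.018, 0.00414 and 0.0174), as they were with the covariate (0.00374, 0.00625 and 0.00826). HLA-DPA1, for example, averaged 15.2 CPM with both agents and 13.9 CPM with TGFβ, against 55.8 CPM with alisertib and 69.6 CPM in untreated cells. Of 21 tested MHC and peptide loading genes none was called by edgeR over all 12 libraries and CIITA by DESeq2, while 5 were called without the 4 libraries (23.8%, against 3.59% of all tested genes), the fifth being CD74. In edgeR's fit over all 12 libraries 5 were positive at an unadjusted p under 0.05, and 16 lay above 0.

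AURKA, which encodes the target of alisertib, and the mitosis genes showed no called interaction. AURKA (chr20:54944445-54967393) had 232, 219 and 214 CPM with both agents and 174, 172 and 178 CPM with TGFβ, against 328, 324 and 357 CPM with alisertib and 317, 277 and 266 CPM in untreated cells. Alisertib raised its transcript in both settings, by a log2 fold change of 0.34 with TGFβ (adjusted p 0.0121) and 0.23 without it (adjusted p 0.0431), and the interaction was 0.11 (-0.08 to 0.30). The mRNA level does not measure the kinase's inhibition. Of 40 tested mitosis genes 0 were called by edgeR and 0 reached an unadjusted p under 0.05; their log2 interactions ran from -0.09 for CENPA to 0.27 for ASPM. PLK1, a mitotic kinase, had 0.07 (SE 0.09), and CCNB1, the mitotic cyclin, 0.00 (SE 0.09). The mitosis list was also without a call by DESeq2, without the 4 libraries and with the covariate. Of 17 Aurora kinase and partner genes edgeR over all 12 libraries and DESeq2 called 0, whereas NEDD9 and CDC25B were called in the positive direction without the 4 libraries (adjusted p 0.00134 and 0.0323) and with the covariate (0.0107 and 0.0441).

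Over 39 tested DNA replication genes the median log2 fold change of alisertib was -0.33 with TGFβ and -0.32 without it. None of them, and none of 20 DNA repair genes, was called or reached an unadjusted p under 0.05 by edgeR. DESeq2 called none either, and MCM10 of the replication list was called without the 4 libraries. The log2 interactions of the replication genes ran from -0.16 for MCM10 to 0.13 for LIG1. Among 11 tested histone genes 0 were called by edgeR or DESeq2 and 1 reached an unadjusted p under 0.05, with all 11 below 0; HIST1H2BJ was called with the covariate. Their median response to alisertib was 0.30 with TGFβ and 0.66 without it. CDKN1A, which encodes the cell cycle inhibitor p21, had a log2 interaction of -0.23 (-0.50 to 0.04, adjusted p 0.983), and means of 257 CPM with both agents and 253 CPM with TGFβ, against 73.3 CPM with alisertib and 61.4 CPM in untreated cells. It was called without the 4 libraries (adjusted p 0.0441), with the covariate (adjusted p 0.000157) and with the offset on GC content.

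Of 47 gene lists, 11 held a gene called by edgeR over all 12 libraries and 36 held none, with 11 distinct called genes among 800 tested members (1.38%, against 0.282% of all tested genes). The lists were chosen with earlier results known. DESeq2 gave calls in 22 lists, the fit without the 4 libraries in 40 and the covariate in 39. The 11 genes called by edgeR over all 12 libraries were IL11, TGFBI, KLF10, KLF4, FAP, CDH11, ADAMTS6, JAG1, EREG, DUSP4 and PDE4B.

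**Figure D5:**
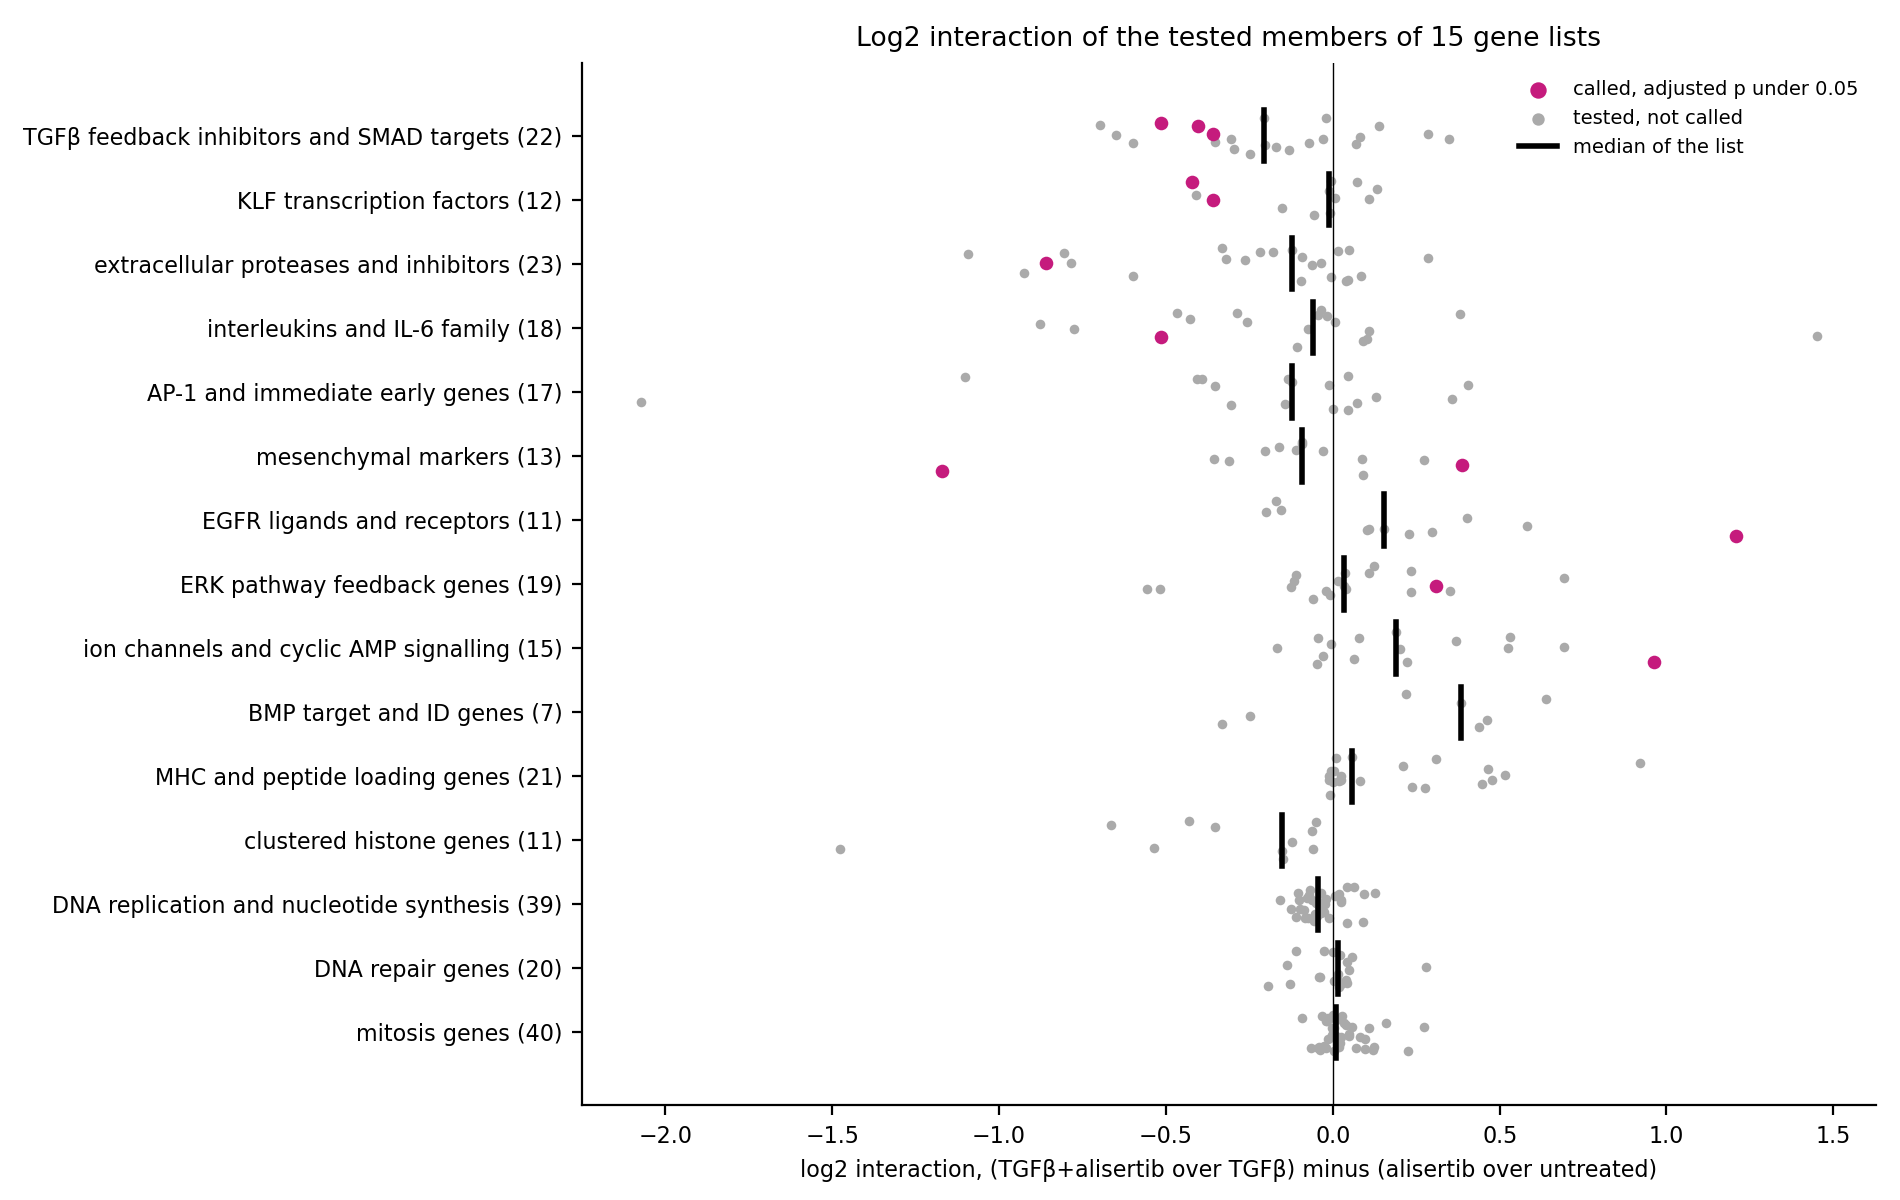
Log2 interaction (x axis) of the tested members of 15 gene lists (rows, number of members in brackets), with called genes in magenta, others in grey and the list median as a black bar. TGFβ feedback inhibitors and SMAD targets have a median of -0.20 and 3 called genes, while the 40 mitosis genes cluster around 0.01 with none called.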

How the data were processed

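RNA of 12 MDA-MB-231 libraries (4 groups of 3) was prepared with the TruSeq RNA kit v2, per the labels' protocols, which does not mark strand. The submitters' processing notes name featureCounts, Subread, TopHat, bcl2fastq and the build hg19, with no versions or settings. The authors deposited raw counts per gene, which were used, and RPKM values, which were not. Total counts per library, 93701658 to 120619368, limit the precision of low genes.

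Counts were filtered with filterByExpr and tested with edgeR 4.0.16 in R 4.3.3 (TMM factors, robust quasi-likelihood, 8 residual degrees of freedom, all 12 libraries in 1 fit). Every p adjusted here is Benjamini-Hochberg over all tested genes of that fit, called under 0.05, and errors of log2 values are standard errors. The script was tested on simulated counts. CPM use effective library sizes.

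Named were the 14 highest and 14 lowest called protein-coding genes reaching 5 CPM in a group, up to 3 called members of each list, and 10 fixed genes; a few of these are not reported here. The genes and lists were chosen with earlier results of these data known. Alternatives were RLE and upper quartile factors, DESeq2 1.42.0, limma 3.58.1 with voom, other filters, fits without robust estimates, leaving out libraries, a covariate from the residuals and an offset on GC content.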

Additional observations from a re-analysis of the deposited data

Results flagged for a closer look

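All 32 named genes that were called appear here for 1 reason: the alisertib response differed between cells with and without TGFβ in the test of that difference itself. The values below are log2 interactions, each the response with TGFβ minus the response without it. Among secreted and surface proteins it was -1.17 for FAP, -0.86 for ADAMTS6, -0.71 for SCG5, -0.62 for CST1, -0.54 for C4orf26, -0.52 for IL11, -0.43 for JAG1 and -0.40 for TGFBI. Among kinases, a phosphatase, a channel and other cell proteins it was -0.79 for PTPRR, -0.77 for DCLK1, -0.76 for MYH15, -0.76 for MARCH4, -0.62 for SGK1, -0.58 for HSF2BP and -0.57 for KCNJ15. The KLF factors had -0.42 for KLF4 and -0.36 for KLF10.

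On the positive side the ligand EREG had 1.21, the cyclic AMP phosphodiesterase PDE4B 0.96, the transporter SLC1A3 0.86, the scaffold CNKSR3 0.81, the receptor CCRL2 0.80 and the actin regulator RCSD1 0.79. The metalloproteinase ADAM28 had 0.71, the transcription factor FOXQ1 0.66, the protease inhibitor TFPI2 0.62, the adaptor SORBS2 0.60 and the cholesterol exporter ABCA1 0.59. The pseudokinase TRIB2 had 0.53, the cadherins FAT4 and CDH11 0.49 and 0.39, and the phosphatase DUSP4 0.31.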

How the results depend on the processing

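Counts follow in 1 order: all calls, positive, negative, alisertib response past its test without TGFβ alone, with TGFβ alone, and TGFβ response smaller with alisertib. As reported they were 58, 24, 34, 39, 9 and 53. DESeq2 gave 184, 72, 112, 121, 26 and 158. No filter on low counts gave 105, 50, 55, 69, 17 and 88. Leaving out the 4 libraries that stood apart gave 744, 479, 265, 586, 50 and 317. The covariate gave 699, 358, 341, 395, 101 and 510, and the offset on GC content 301, 126, 175, 196, 44 and 257. An adjusted p under 0.01 gave 13, 4, 9, 10, 1 and 12, and one under 0.1 gave 117, 48, 69, 87, 14 and 99. With limma-voom there were 22 negative calls among 40. Leaving out 1 library at a time gave 19 to 166 calls, 4 to 80 positive, 12 to 86 negative, 14 to 120 with an alisertib response without TGFβ alone, 1 to 15 with TGFβ alone and 18 to 132 with a smaller TGFβ response. The cause of these shifts was not tested.

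No call changed direction in any of these fits, and all 58 genes had the same sign within the 4 libraries that stood apart and within the other 8. The genes were chosen by a test over these same 12 libraries, so this agreement is nearly fixed in advance and supports nothing beyond the calls. Of the 32 named called genes, 8 were called in each of the 12 fits that left out 1 library (ADAMTS6, MYH15, MARCH4, SCG5, TFPI2, CCRL2, PDE4B and JAG1), and 18 in fewer than 6. Genes below 1 CPM are limited by depth. No paired analysis was possible because the groups share no replicate numbers.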

Other observations

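Of the genes called without the 4 libraries that stood apart, 426 were also called with the covariate, which is 57.3% of the 744 and 60.9% of the 699, and both fits share libraries. The 426 hold the 58 genes called in edgeR's test as reported above, and the rest, which are most of them, were not called there. The ones given here were chosen after their values were seen. Among BMP target genes, the transcriptional inhibitors ID1 and ID2 had log2 interactions of 0.45 and 0.63 with the covariate (adjusted p 0.0298 and 0.00702). ID1 averaged 3.32 CPM with both agents and 3.58 CPM with TGFβ, against 9.26 CPM with alisertib and 13.8 CPM in untreated cells. The ligand BMP4 had 0.39 (adjusted p 0.00172), with means of 35.2 CPM with both agents and 34.2 CPM with TGFβ, against 183 CPM with alisertib and 233 CPM in untreated cells.

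Of the lipid synthesis genes, SREBF1, a transcription factor that drives them, had 0.58 (adjusted p 2.96e-05) and the desaturase SCD 0.35 (adjusted p 0.00807). SCD averaged 173 CPM with both agents and 246 CPM with TGFβ, against 82.8 CPM with alisertib and 150.0 CPM in untreated cells. In the negative direction the cytokine IL1A had -0.44 (adjusted p 4.39e-05), with 121 CPM with both agents and 86.3 CPM with TGFβ, against 30.4 CPM with alisertib and 16.2 CPM in untreated cells. CSF2, the growth factor GM-CSF, had -0.47 (adjusted p 2.53e-05), and the stress gene GADD45A -0.41 (adjusted p 0.00016). On the interleukin list that holds IL1A and CSF2, IL1RN (1.45) and CSF1 (0.37) were positive calls in both fits. IL1RN averaged 0.659 CPM with both agents and 0.152 CPM with TGFβ, against 2.86 CPM with alisertib and 1.83 CPM in untreated cells. In CPM the difference of differences had the opposite sign for SCD, IL1A and IL1RN. In edgeR's test as reported above none of these genes was called. DESeq2 called ID2, BMP4, GADD45A and IL1RN. The offset on GC content gave calls of ID2, BMP4, SREBF1, IL1A, GADD45A, IL1RN and CSF1.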
